A study of Mus musculus with 10 samples.

Results

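The genes described here are 8 genes of Schwann cells and myelin: *Sox10*, *Cdh19*, *Ngfr*, *Xkr4*, *Mbp*, *Pmp22*, *Prx* and *S100b*. They were chosen by gene symbol from the 55453 symbols of the count table, as genes that trace the nerves of the vessel wall, and all 8 were found. RNA was sequenced from whole aortae of male C57BL/6 mice, an inbred strain, without any further allele or agent. The young group was 5 mice of 14.5 weeks and the old group 5 mice of 92.5 weeks, with 1 library per aorta. Young and old mice were killed at the same time, and the fat around the vessel was removed before RNA extraction. Each library held the RNA of all layers of the wall together, so that fewer cells of a type and less RNA per cell cannot be told apart.

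Schwann cells are the glia of peripheral nerves, and they reach the aorta with the sympathetic and sensory fibres of the adventitia. Myelinating Schwann cells wrap a single axon in a compact lipid-rich sheath held together by a few abundant proteins, whereas non-myelinating Schwann cells (Remak cells) hold bundles of thin axons, the kind that most vascular nerves contain. SOX10 is the transcription factor that both kinds need throughout life, cadherin-19 and the neurotrophin receptor p75NTR (*Ngfr*) mark the lineage, and MBP, PMP22 and periaxin (*Prx*) build or anchor the sheath. Some of these proteins are also made outside nerves: S100B in cartilage and fat cells, PMP22 in fibroblasts, where it is known as a growth arrest gene, and SOX10 in melanocytes.

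Of the 8 genes, 2 differed between old and young aortae when all 10 mice were compared. *Prx* was higher and *Pmp22* lower in old aortae, and the other 6 did not pass the test. Values are normalized counts, that is, read counts divided by a size factor for each library, and fold changes are old over young on the log2 scale, each with its fitted standard error (SE). A gene was called at a Benjamini-Hochberg adjusted p below 0.05 in edgeR's quasi-likelihood F test over all 14614 tested genes. At that threshold 11.5% of all tested genes were called, 6.48% as higher and 4.99% as lower in old aortae, so that with 8 genes a count of 1 in each direction says nothing particular about these genes.

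Young replicate 1 and old replicate 2 stood apart within their groups. Across all genes the distance to the other libraries of the same age (chi-square divided by its degrees of freedom) was 14.8 to 22.5 for young replicate 1 and 25.9 to 41.5 for old replicate 2, beside 6.04 to 16.2 between the remaining libraries. Young replicate 1 had more of several nerve genes than the other 4 young aortae, and also more of the fat cell genes. Summed over 7 adipocyte genes it held 19754 normalized counts, where the other young aortae held 10680 to 14971 and the old aortae 10245 to 14645. All 7 were highest among the young aortae in this library, and 6 of them highest of all 10 libraries. The fold change of each of the 8 genes is therefore given with and without it, and its part in the results was not tested. Total counts ranged from 19640401 to 22886153 per library, and the share of mitochondrial counts from 4.50% to 11%, with the highest share in old replicate 2. Without old replicate 2 the same 2 of the 8 genes were called, *Prx* with a log2 fold change of 0.44 (adjusted p = 0.0111) and *Pmp22* with -0.36 (adjusted p = 0.00692), and the log2 fold change of *S100b* was 0.32 (adjusted p = 0.0997).

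Promoter sequences are printed for both called genes, *Prx* and *Pmp22*, and for *S100b*. The level of *S100b* varied with that of *Prx* from mouse to mouse by Pearson r (adjusted permutation p = 0.0183). By rank the pair did not pass (adjusted permutation p = 0.0701), and no member pair passed when young replicate 4 was left out. Each line gives the 250 bases before a transcription start in RefSeq (GRCm38.p6), 5′ to 3′ in the direction of the gene, with matches to the CCAAT box (CCAAT, or ATTGG on the other strand) in capitals.
Prx (chr7:27499074-27499323, plus strand): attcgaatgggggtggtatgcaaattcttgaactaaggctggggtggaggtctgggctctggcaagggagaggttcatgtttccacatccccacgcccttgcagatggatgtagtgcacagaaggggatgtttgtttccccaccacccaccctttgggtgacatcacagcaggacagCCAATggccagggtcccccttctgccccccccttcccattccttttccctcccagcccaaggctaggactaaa
S100b (chr10:76253586-76253835, plus strand): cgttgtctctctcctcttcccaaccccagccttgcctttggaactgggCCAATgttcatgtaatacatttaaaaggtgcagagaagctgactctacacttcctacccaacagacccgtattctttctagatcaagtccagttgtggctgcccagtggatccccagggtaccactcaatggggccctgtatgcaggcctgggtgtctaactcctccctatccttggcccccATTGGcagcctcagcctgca
Pmp22 first start (chr11:63128732-63128981, plus strand): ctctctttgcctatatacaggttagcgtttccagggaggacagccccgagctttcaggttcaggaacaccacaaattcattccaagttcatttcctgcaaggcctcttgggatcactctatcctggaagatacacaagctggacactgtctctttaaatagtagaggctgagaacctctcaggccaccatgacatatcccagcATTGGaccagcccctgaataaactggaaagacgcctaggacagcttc
Pmp22 second start (chr11:63131207-63131456, plus strand): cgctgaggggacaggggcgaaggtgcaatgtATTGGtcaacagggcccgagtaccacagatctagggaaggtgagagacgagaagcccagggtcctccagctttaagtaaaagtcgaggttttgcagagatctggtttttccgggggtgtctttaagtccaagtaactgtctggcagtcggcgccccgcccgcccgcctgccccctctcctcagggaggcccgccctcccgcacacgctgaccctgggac
*Prx* had a CCAAT box 73 bases before its start, *S100b* had a pair of them 202 and 20 bases before, and the printed *Pmp22* windows had 1 each, 47 and 219 bases before their starts. The same letters occur in 33.8% of the 32851 promoter windows of this length in the table, so that a match is frequent. *Pmp22* has 4 start windows in RefSeq, of which the first 2 are printed and the other 2 held no CCAAT box, and the gene counts sum over all of them. The other member whose window was examined was *Ngfr*, without a CCAAT box, so that windows of 4 of the 8 members were examined. No window of *Mbp*, *Sox10*, *Cdh19* or *Xkr4* was examined, so that the motif matches say nothing about these genes. None of the 7 windows held a SOX site (ACAAAG, in 16.5% of all windows, or AACAAT, in 9.42%), a TATA box (TATAAA, in 12.4%) or a CArG box (in 1.47%), on either strand. A GC box (GGGCGG, in 32.7% of all windows) was found for *Ngfr* and *Pmp22*, where some matches overlap each other. The motifs were chosen with the sequences in view, and a missing match says only that these letters are not in that window.

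The lineage factor *Sox10* (GRCm38, chromosome 15, 79154908 to 79165240, minus strand) had 82.8, 46.3, 49.9, 47.3 and 32.8 normalized counts in young replicates 1 to 5. In old replicates 1 to 5 it had 76.9, 89.4, 46.6, 71.3 and 90.4. Among the old aortae, 4 lay above every young aorta except replicate 1, and old replicate 3 was as low as the young. The means were 51.8 ± 18.6 and 74.9 ± 17.8 (SD, n = 5 each), a log2 fold change of 0.54 (SE 0.25, adjusted p = 0.180 in edgeR). Without young replicate 1 the log2 fold change was 0.77 (SE 0.22, adjusted p = 0.0322). Melanocytes also use *Sox10*. Of 6 melanocyte genes, 2 were tested and *Mlana* was higher in old aortae (12.8 ± 2.36 and 53.5 ± 13.3), while *Mitf* had a log2 fold change of 0.00 (SE 0.12, adjusted p = 0.995). The summed level of the 6 was 432 to 696 in young and 539 to 619 in old aortae, and most of it was *Mitf* (517 ± 108 and 514 ± 45.6). *Dct*, picked out after its values were seen, was at 0 in all old aortae and at 1.01 to 4.09 normalized counts in young ones. Like *Dct*, the genes *Pmel* (means 4.61 in young and 5.46 in old), *Tyrp1* (0.406 and 0.985) and *Tyr* (0.409 and 0.193) were too low to be tested. The part of melanocytes in the *Sox10* values was not tested.

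*Cdh19* (chromosome 1, 110888326 to 110977584, minus strand), the cadherin of Schwann cells and their precursors, showed a similar division. Young replicates 1 to 5 had 163, 65.4, 77.8, 43.5 and 86.1 normalized counts, and old replicates 1 to 5 had 99.9, 161, 71.8, 132 and 144. Old replicates 1, 2, 4 and 5 exceeded young replicates 2 to 5, and no old aorta exceeded young replicate 1. The means of 87.0 ± 45.2 and 122 ± 35.8 gave a log2 fold change of 0.49 (SE 0.32, adjusted p = 0.366), and without young replicate 1 it was 0.84 (SE 0.25, adjusted p = 0.0399).

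*Ngfr* (chromosome 11, 95568818 to 95587735, minus strand) encodes p75NTR, a neurotrophin receptor of immature and non-myelinating Schwann cells. It was the scarcest of the 8, with raw counts of 7 to 36. Young replicates 1 to 5 had 36.8, 8.05, 16.0, 14.5 and 7.17 normalized counts and old replicates 10.99, 20.7, 14.0, 22.2 and 22.4. The highest value was that of young replicate 1, and 3 old aortae lay above the other 4 young ones. The log2 fold change was 0.14 (SE 0.41, adjusted p = 0.871), and 0.65 (SE 0.34, adjusted p = 0.216) without young replicate 1. The sign turned to -0.04 without young replicate 2 and to -0.06 without young replicate 5.

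*Xkr4* (chromosome 1, 3205901 to 3671498, minus strand), a membrane protein of the XK family, had 167, 131, 241, 196 and 176 normalized counts in young replicates 1 to 5 and 193, 112, 91.3, 176 and 140.0 in old replicates 1 to 5. It was the member in which young replicate 1 lay below the mean of the other young aortae, at 0.895 times. The groups overlapped over most of their range, with a log2 fold change of -0.35 (SE 0.21, adjusted p = 0.322), and of -0.38 (SE 0.23, adjusted p = 0.300) without young replicate 1.

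Of the myelin genes, *Mbp* (chromosome 18, 82475146 to 82585637, plus strand) encodes the basic protein that seals the inner faces of the membrane wraps. The same gene also makes golli transcripts, which are found outside myelin, and gene counts do not separate them. Young replicates 1 to 5 had 511, 164, 243, 198 and 164 normalized counts and old replicates 1 to 5 had 295, 373, 298, 353 and 409. All 5 old aortae lay above young replicates 2 to 5 and below young replicate 1. With all mice the means were 256 ± 146 and 346 ± 49.2 and the log2 fold change 0.44 (SE 0.30, adjusted p = 0.392). Without young replicate 1 the young mean was 192 ± 37.6 (n = 4) and the log2 fold change 0.85 (SE 0.14, adjusted p = 0.00191). After *Ngfr*, this was the largest shift with that omission among the 8 genes.

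*Pmp22* (chromosome 11, 63128982 to 63159547, plus strand), the tetraspan protein of compact myelin whose dosage underlies inherited neuropathies, was lower in old aortae. Young replicates 1 to 5 had 5486, 5192, 4789.8, 4585 and 4534 normalized counts, and old replicates 1 to 5 had 3747.5, 3256, 3989.9, 3932.5 and 3654. Every old aorta lay below every young one. Means were 4917 ± 410 and 3716 ± 291 (SD, n = 5 each), 0.760 times the young level, with a log2 fold change of -0.40 (SE 0.07, adjusted p = 0.00379). *Pmp22* was the single member whose groups did not overlap, as they did not in 9.92% of all tested genes. It was called in all 21 alternative fits, with adjusted p from 1.1e-05 to 0.0175, and without young replicate 1 the log2 fold change was -0.36 (SE 0.07, adjusted p = 0.00514). Its mean of 4917 in young aortae stood beside 256 for *Mbp* and 51.8 for *Sox10*. Fibroblasts also make PMP22, and among 6 fibroblast genes *Lum* was higher and *Pi16* and *Col1a1* were lower in old aortae. The part of such cells in the *Pmp22* values was not tested.

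*Prx* (chromosome 7, 27499324 to 27520214, plus strand) encodes periaxin, which links the myelinating Schwann cell to its basal lamina. It had 487, 453, 476, 360.2 and 452 normalized counts in young replicates 1 to 5 and 564, 472, 658, 571 and 613 in old replicates 1 to 5. Of the old aortae, 4 exceeded all young ones, and old replicate 2 lay within the young range. The means of 445 ± 49.9 and 576 ± 69.2 gave a ratio of 1.30 and a log2 fold change of 0.38 (SE 0.10, adjusted p = 0.0254). Without young replicate 1 the log2 fold change was 0.41 (SE 0.10, adjusted p = 0.0188). The call was kept in 16 of 21 alternative fits, with adjusted p from 0.00563 to 0.0636. It was lost, at 0.0523 to 0.0636, when young replicate 2, 4 or 5 or old replicate 3 or 5 was left out. The opposite-strand gene *Gm15541* overlaps 5.38% of the exonic sequence of *Prx*, and the strand setting of the counting is not given in the sources used here, so that this share of its reads is uncertain.

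*S100b* (chromosome 10, 76253853 to 76261159, plus strand), the calcium-binding protein used to stain Schwann cells, had 199, 191, 222, 149.7 and 193 normalized counts in young replicates 1 to 5. In old replicates 1 to 5 it had 232, 165, 257, 218 and 247. Of the old aortae, 3 exceeded all young ones, and old replicate 2 was lower than all young aortae except replicate 4. The log2 fold change was 0.24 (SE 0.13, adjusted p = 0.279), and 0.25 (SE 0.14, adjusted p = 0.262) without young replicate 1. It stayed above the threshold in all 21 alternative fits. Cartilage cells also make S100B, and among 6 chondrocyte genes *Acan* (log2 fold change 0.76, SE 0.14, adjusted p = 0.00526) and *Comp* (0.46, SE 0.12, adjusted p = 0.0320) were higher in old aortae. *Comp* was no longer called without young replicate 1 (adjusted p = 0.0564). *Chad*, a cartilage matrix protein picked out after its values were seen, went the other way, with a log2 fold change of -2.02 (SE 0.60, adjusted p = 0.0512). It was called lower in 10 of 21 alternative fits, among them the one without young replicate 1 (adjusted p = 0.0452). *Col2a1* had 9.18 ± 11.7 and 42.0 ± 42.3 normalized counts (log2 fold change 2.19, SE 0.80, adjusted p = 0.108 in edgeR), and was called higher in 3 of 21 alternative fits. The summed level of the 6 was 1906 to 2818 in young and 2962 to 4216 in old aortae, and most of it was *Acan* and *Comp*. The part of such cells in the *S100b* values was not tested.

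**Figure D1:**
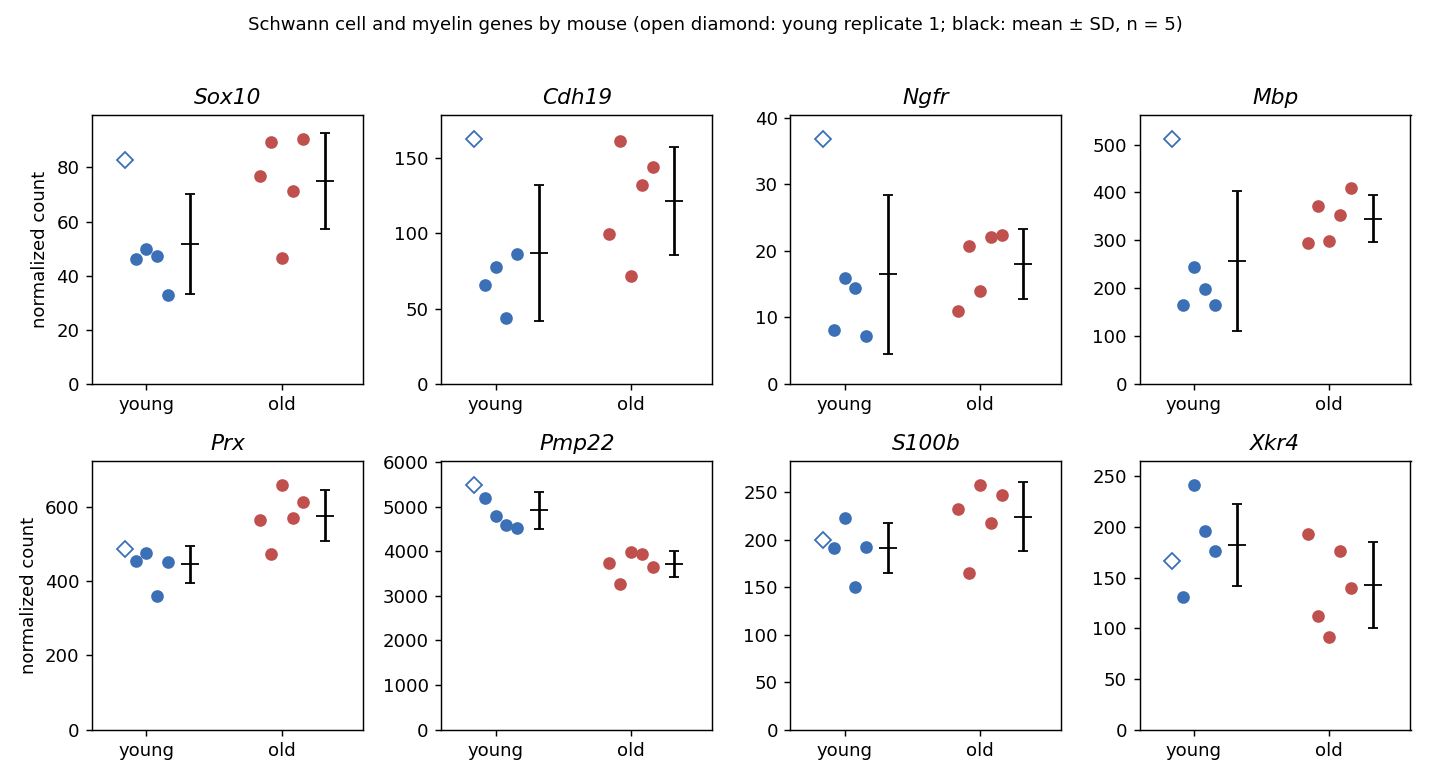
Normalized counts of the 8 genes in each of 5 young (blue) and 5 old (red) aortae, 1 panel per gene with its own axis from 0. The open diamond is young replicate 1, and black bars are the mean and SD of each group. For *Mbp* the 4 other young aortae (164 to 243) sit below all old ones (295 to 409), with the diamond at 511, and for *Pmp22* all old aortae sit below all young ones.

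Without young replicate 1, edgeR called 5 of the 8 genes, with *Mbp*, *Sox10*, *Cdh19* and *Prx* higher and *Pmp22* lower in old aortae. The same omission raised the share of all tested genes that were called to 16.1% (2367 of 14744), so that the larger count stands beside a larger background. Down-weighting libraries by their fit instead of omitting one (limma-voom with quality weights) also called 5 of the 8, beside 18.1% of all genes. In limma-voom without young replicate 1 the count was 3, *Mbp*, *Prx* and *Pmp22*, beside 2360 of all 14744 tested genes. In that fit *Sox10* and *Cdh19* had adjusted p of 0.0525 and 0.0614. Each library was left out in turn, and young replicate 1 was singled out after its values had been seen. With all 10 mice, 6 of the 8 genes had a positive log2 fold change. The median of the 8 was 0.31, beside 0.00339 over all 14614 tested genes, and a shift of the 8 as a set was not tested.

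**Figure D2:**
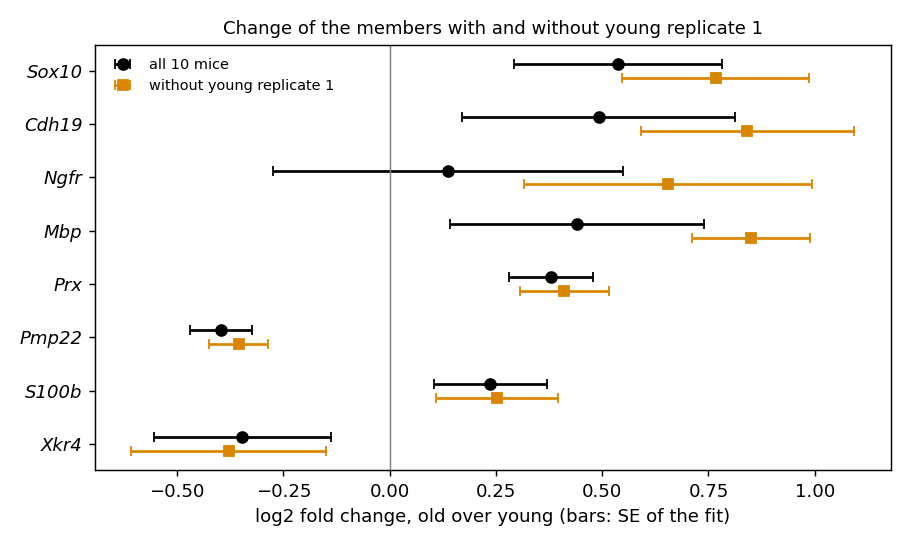
Log2 fold change, old over young, of the 8 genes with all 10 mice (black circles) and without young replicate 1 (orange squares), with bars of 1 SE. The omission moves *Mbp* from 0.44 to 0.85 and *Ngfr* from 0.14 to 0.65, while *Pmp22*, *Prx*, *S100b* and *Xkr4* stay near their values.

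Young replicate 1 was not raised in all nerve genes alike. Against the mean of the other young aortae it held 3.22 times as much *Ngfr*, 2.66 times *Mbp*, 2.38 times *Cdh19* and 1.88 times *Sox10*. It held 1.15 times *Pmp22*, 1.12 times *Prx* and 1.05 times *S100b*. Of the tested genes of the 3 further lists described below, *Gpr37l1*, a receptor of satellite glia and non-myelinating Schwann cells, had the widest gap at 3.12 times, and *Cnp* was at 1.58 times. Among the other 43 Schwann cell and myelin genes examined, 27 were highest among the young aortae in this library, and the share over all genes is not given here. *Ptprz1* and *Ncam1*, also among the 43, were lowest of the young aortae there, at 0.65 and 0.88 times. The summed level of the non-myelinating Schwann cell genes was 16102 there and 17448 to 19492 in the other young aortae. Outside nerve and fat cell genes, *Myocd* was at 0.34 times and *Kdr* at 2.45 times. The noradrenaline-synthesis genes *Th* and *Dbh*, which mark sympathetic neurons and were picked out after their values were seen, reached 12.3 and 8.18 normalized counts there and at most 2.18 in any other library. The neuron and axon list they come from did not follow as a whole. Of its 14 genes, 5 were highest among the young aortae there, while *Slc18a2* was at 0.62 times and *Uchl1* at 0.90 times. Their summed level was 1686 there and 1594 to 1868 in the other young aortae. The oligodendrocyte genes *Opalin*, *Olig2* and *Ermn* were at 0 in all 10 libraries, and the other 3 of that list had at most 4 counts.

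**Figure D3:**
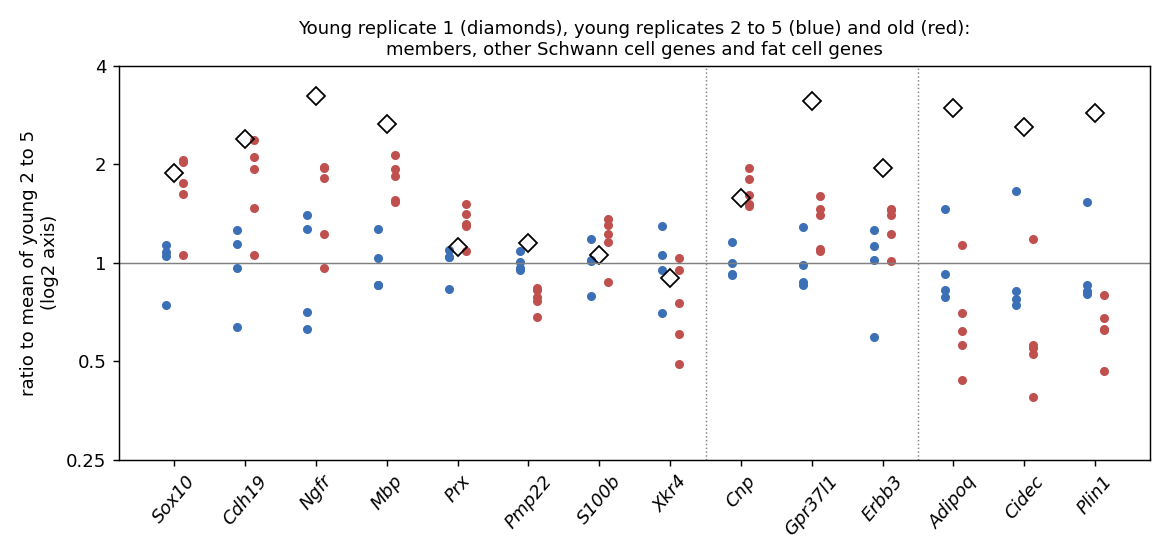
Level of the 8 genes, 3 further Schwann cell genes and 3 fat cell genes in each aorta, as a ratio to the mean of young replicates 2 to 5 on a log2 axis. Diamonds are young replicate 1, blue points the other young and red points the old aortae. The diamond lies at 3.12 for *Gpr37l1* and 2.66 for *Mbp*, and close to 1 for *Prx*, *Pmp22*, *S100b* and *Xkr4*.

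From mouse to mouse, 3 of the 28 pairs among the 8 genes varied together beyond the correction for multiple tests, *Mbp* with *Ngfr*, *Mbp* with *Sox10* and *Prx* with *S100b*. Correlations were computed on log2(normalized count + 1) after the group means were removed, over 10 mice, with permutation tests of 100000 resamples within groups. *Mbp* and *Ngfr* had r = 0.95 (permutation p = 0.00054, adjusted p = 0.0151) and rho = 0.93 (permutation p = 0.00049, adjusted p = 0.0137), and r was 0.88 without the 2 mice farthest from the median. *Mbp* and *Sox10* had r = 0.82 (permutation p = 0.00315, adjusted p = 0.0294) and rho = 0.82 (permutation p = 0.00462, adjusted p = 0.0647). That relation rests on few mice, since r fell to 0.55 without the 2 farthest. *Sox10* with *Ngfr* (r = 0.78), *Mbp* with *Cdh19* (r = 0.75) and *Sox10* with *Cdh19* (r = 0.70) did not pass the correction, at adjusted permutation p of 0.154, 0.178 and 0.186.

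*Prx* and *S100b* made another pair, with r = 0.95 (permutation p = 0.00131, adjusted p = 0.0183) and rho = 0.84 (permutation p = 0.00751, adjusted p = 0.0701). For this pair r was 0.75 without the 2 farthest mice and 0.97 without young replicate 1. *Pmp22* had r = 0.71 with *Prx* and 0.61 with *S100b*, which did not pass the correction at adjusted permutation p of 0.178 and 0.32, although the age difference of *Pmp22* was opposite to that of *Prx*. With *Sox10*, *Cdh19*, *Ngfr* and *Mbp* taken as a set and *Prx*, *S100b* and *Pmp22* as another, which was done after the correlations had been seen, r between the sets ranged from -0.18 for *Sox10* with *S100b* to 0.36 for *Mbp* with *Pmp22*. The same pairs without young replicate 1 ranged from -0.48 for *Sox10* with *Prx* to -0.04, and *Mbp* with *Pmp22* was at -0.35. *Xkr4* had no r beyond 0.22 with any other member. With 1 library left out, 0 to 4 pairs passed the correction, none of them when young replicate 4 was omitted and 1 when young replicate 1 or old replicate 2, 3 or 5 was. Without young replicate 1 the pair *Mbp* and *Ngfr* was still at r = 0.92, whereas *Sox10* with *Cdh19* was at 0.44 and *Mbp* with *Cdh19* at 0.40.

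**Figure D4:**
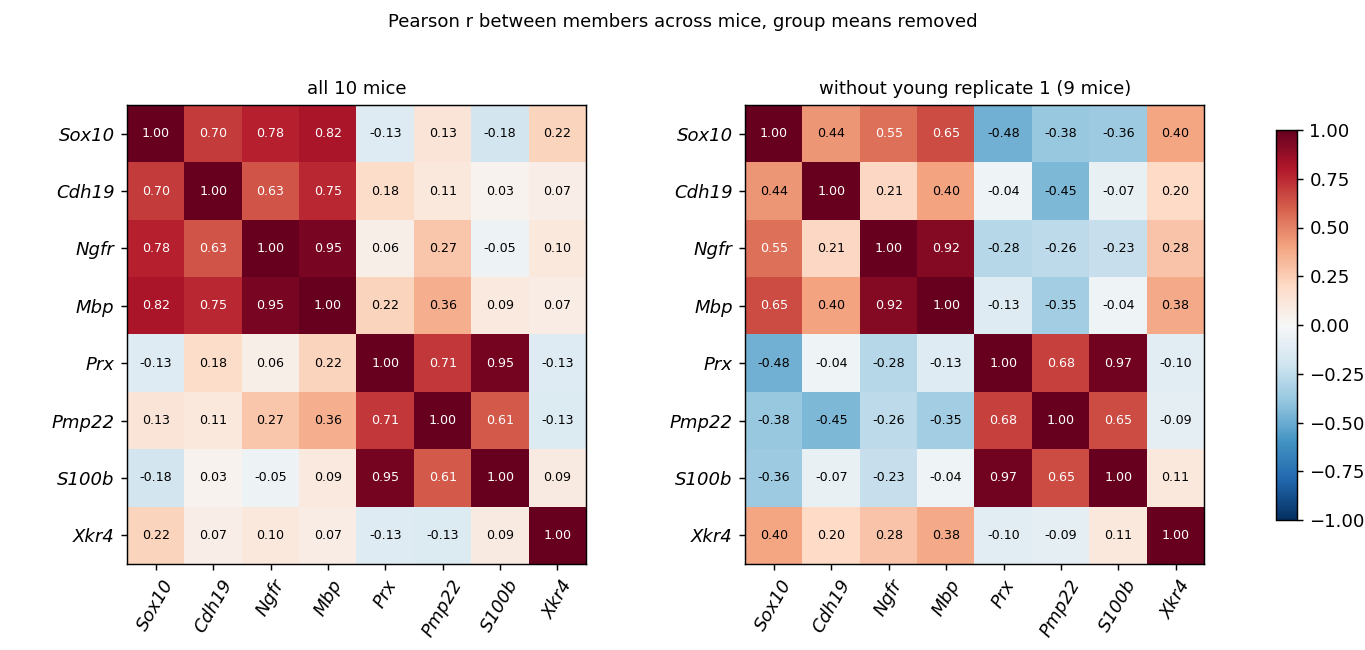
Pearson r between each pair of the 8 genes across mice after the group means were removed, with all 10 mice (left) and without young replicate 1 (right). Colours run from blue at -1 to red at 1. With all 10 mice the blocks of *Sox10*, *Cdh19*, *Ngfr* and *Mbp* and of *Prx*, *Pmp22* and *S100b* stand out. Without young replicate 1 *Cdh19* is at 0.44 with *Sox10*, 0.40 with *Mbp* and 0.21 with *Ngfr*. *Mbp* and *Ngfr* are at 0.95 on the left and 0.92 on the right.

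Per length, in counts per kilobase of exonic sequence scaled to library size (RPKM), the 8 genes spanned a wide range of levels. *Pmp22* was at 95.6 ± 9.83 in young and 73.8 ± 5.86 in old aortae, far above all others. *S100b* (5.89 ± 0.867 and 7.05 ± 1.16) and *Prx* (3.65 ± 0.460 and 4.82 ± 0.601) followed, and these 3 stood in this order in both groups with differences beyond their spread. *Mbp* was at 1.40 ± 0.845 in young and 1.91 ± 0.289 in old aortae. In young aortae *Mbp* did not differ beyond its spread from *Xkr4* (1.37 ± 0.312), *Cdh19* (0.938 ± 0.515) or *Sox10* (0.781 ± 0.303). In old aortae *Cdh19* (1.33 ± 0.397), *Sox10* (1.15 ± 0.276) and *Xkr4* (1.09 ± 0.318) lay within one another's spread. *Ngfr* was lowest, at 0.222 ± 0.168 and 0.245 ± 0.0727. The spread over the young aortae was 57.1% of the mean for *Mbp* and 8.34% for *Pmp22*.

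Other genes of the pathway were taken from 3 lists of 43 genes in all, of which 30 were tested and 5 called, 3 higher and 2 lower, with a median log2 fold change of -0.09. The share called was 16.7%, beside 11.5% of all genes. The same 5 were called without young replicate 1, and *Egr2* and *Scn7a* with them. Of 12 further genes of myelin structure, 6 were tested. *Cnp*, a membrane-bound phosphodiesterase of the non-compacted myelin channels, was higher in old aortae (393 ± 97.6 and 589 ± 69.7 normalized counts, log2 fold change 0.59, SE 0.14, adjusted p = 0.0201). Without young replicate 1 the log2 fold change of *Cnp* was 0.75 (SE 0.10, adjusted p = 0.00055). It was called in 17 of 21 alternative fits, and lost, at adjusted p of up to 0.0578, without young replicate 2, 4 or 5 or old replicate 3. *Mpzl1*, a membrane glycoprotein that many tissues express, was lower (515 ± 32.2 and 374 ± 27.9, log2 fold change -0.45, SE 0.07, adjusted p = 0.00163). *Gldn*, which gathers channels at the nodes, had a log2 fold change of -0.01 (SE 0.11, adjusted p = 0.966). *Drp2*, a partner of periaxin in the dystroglycan complex of the outer Schwann cell membrane, had 43.0 ± 12.2 and 39.9 ± 11.4 normalized counts (log2 fold change -0.10, SE 0.25, adjusted p = 0.840). The membrane protein *Mal* had 65.0 ± 16.3 and 80.4 ± 47.0 (log2 fold change 0.31, SE 0.32, adjusted p = 0.596), with 162 in old replicate 2, and without that library the log2 fold change was -0.12. *Mag*, *Pllp*, *Ncmap*, *Cldn19*, *Gjb1* and *Fa2h* were too low to be tested, with means of at most 9.85 normalized counts in either group.

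Of 16 genes of Schwann cell signals and factors, 11 were tested. *Adam22*, a receptor for the Schwann cell protein LGI4, was higher in old aortae, with 190.2 to 231 normalized counts in young and 263 to 301 in old. All old aortae lay above all young ones (log2 fold change 0.48, SE 0.08, adjusted p = 0.00281), and the call held in all 21 alternative fits. *Lgi4* itself had a log2 fold change of 0.14 (SE 0.14, adjusted p = 0.578), the neurotrophin *Ntf3* -0.14 (SE 0.13, adjusted p = 0.533) and the neuregulin coreceptor *Erbb2* 0.06 (SE 0.07, adjusted p = 0.677). The opposite-strand gene *Fxyd3* overlaps 44.9% of the exonic sequence of *Lgi4*, so that this share of its reads is uncertain. *Erbb3*, the neuregulin receptor that Schwann cells depend on, was picked out after its values were seen and had 74.3 ± 30.8 and 81.7 ± 11.9 normalized counts (adjusted p = 0.764).

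Of 15 genes of non-myelinating Schwann cells, 13 were tested. *Gap43*, a growth-associated protein of axons and immature Schwann cells, was lower in old aortae, with 26.6 to 51.1 normalized counts in young and 9.64 to 19.4 in old (log2 fold change -1.31, SE 0.26, adjusted p = 0.00636). *Art3*, an ectoenzyme of the ADP-ribosyltransferase family, was higher (1480 ± 167 and 2432 ± 505, log2 fold change 0.72, SE 0.13, adjusted p = 0.00455). The most abundant of the list, *Ncam1*, *Ptprz1* and *Matn2*, had log2 fold changes of -0.17, -0.22 and 0.11 and did not pass the test (adjusted p = 0.153, 0.434 and 0.637). The called genes of the 3 lists thus went in both directions, as did the 8 genes themselves.

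**Figure D5:**
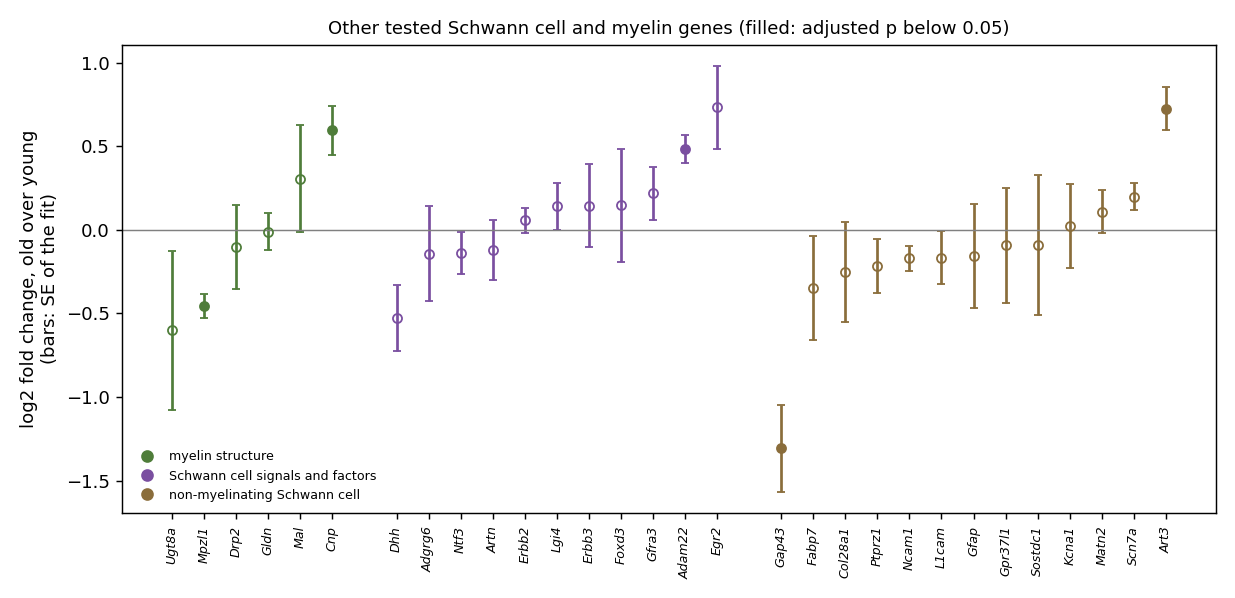
Log2 fold change, old over young, with bars of 1 SE, for the 30 tested genes of myelin structure (green), Schwann cell signals and factors (purple) and non-myelinating Schwann cells (brown). Filled points passed the test, with *Art3* at 0.72 and *Gap43* lowest at -1.31.

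Of 14 neuron and axon genes, 4 were tested. The tubulin *Tubb3* (18.8 ± 3.64 and 56.9 ± 15.6, log2 fold change 1.6, SE 0.23, adjusted p = 0.000880) and the ubiquitin hydrolase *Uchl1* (1421 ± 71.7 and 2314 ± 325, log2 fold change 0.71, SE 0.09, adjusted p = 0.000241) were higher in old aortae. The opposite-strand gene *Uchl1os* overlaps 18.1% of the exonic sequence of *Uchl1*, so that this share of its reads is uncertain. The other tested genes were *Stmn2* (log2 fold change -0.33, SE 0.24, adjusted p = 0.420) and *Prph* (0.68, SE 0.36, adjusted p = 0.251). The neurofilament genes *Nefl*, *Nefm* and *Nefh* had means of at most 1.61 normalized counts. Of 6 perineurial genes, 4 were tested and *Cldn1* was higher (log2 fold change 1.34, SE 0.24, adjusted p = 0.00298). The other tested genes were not called, *Moxd1* at 0.54 (adjusted p = 0.0923), *Slc2a1* at -0.17 (adjusted p = 0.163) and *Itgb4* at -0.42 (adjusted p = 0.307). Without young replicate 1 edgeR called *Slc2a1* lower (adjusted p = 0.045). The summed level of the 6 was 1825 to 2065 in young and 1500 to 1917 in old aortae.

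Markers of other cells of the wall also differed. All 6 macrophage genes had positive log2 fold changes, 3 of them called (*Adgre1*, *Cd68* and *C1qa*), with a summed level of 3726 to 5038 in young and 5085 to 9831 in old aortae. The 6 endothelial genes had negative ones, with *Tek* called (adjusted p = 0.0381, and 0.0656 without young replicate 1), and their sum was 19345 to 33413 in young and 9726 to 22319 in old aortae. Among the fibroblast genes *Lum* was higher and *Pi16* and *Col1a1* were lower. Of the 6 smooth muscle genes edgeR, limma-voom and DESeq2 called 0, and 0 had an unadjusted p below 0.05, but without young replicate 1 edgeR called *Cnn1* (adjusted p = 0.0447) and *Myocd* (log2 fold change -0.75, adjusted p = 0.0204) lower. Of the 7 adipocyte genes, whose median log2 fold change was -1.0, and -0.53 without young replicate 1, edgeR and limma-voom called 0 and DESeq2 called 1, while 4 had an unadjusted p below 0.05 in edgeR. With 1 library left out, the called genes numbered 0 to 2 of the smooth muscle, 0 to 5 of the endothelial, 1 to 4 of the macrophage and 1 to 2 of the chondrocyte list. The part of these cells in the values of the 8 genes was not tested.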

How the data were processed

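RNA of 10 aortae was analysed, 5 young and 5 old, 1 library each. The authors trimmed reads with fastp 0.20.0, aligned them to GRCm38 with STAR 2.7.0f and counted them per gene with featureCounts (Subread 1.6.4), with a stranded poly(A) kit per the labels. The deposited values are these raw counts, without normalization, for 55453 symbols. The strand setting and the treatment of reads with several alignments are not given in the sources used here. Old mice were 92.5 weeks old per the labels.

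Genes were filtered with filterByExpr and compared by the quasi-likelihood F test of edgeR 4.0.16 (R 4.3.3) with TMM scaling, a robust dispersion fit and no covariates, which tested 14614 of 28011 genes with a count. P-values were adjusted over all tested genes, without a fold limit. Normalized counts used DESeq2 1.42.0 size factors. Positions and exonic lengths came from GENCODE M21. Scripts were tested on simulated data. In the 20 pairs of libraries of the same age, chi-square divided by its degrees of freedom was 6.04 to 41.5, so that no library was a copy of another.

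The members, lists and tests were chosen with earlier results of these data known. Genes named are the 8 members and the 5 genes most like *Sox10*, *Cdh19* and *Xkr4*. Named in each list are the called genes, those at 0 in all libraries and the up to 3 tested genes of highest mean. The genes of highest mean are not all named for the adipocyte, endothelial, smooth muscle, fibroblast and macrophage lists. Other genes were picked after seeing their values. As 21 alternatives, the comparison was repeated with DESeq2, limma-voom 3.58.1 with and without quality weights, other scalings and count filters, a replicate block, each library left out, and, added after the data were seen, DESeq2 and limma-voom without young replicate 1. A threshold of 0.01 was tried besides. Some genes of the lists are not reported here and were left out of the list counts.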

Additional observations from a re-analysis of the deposited data

Results flagged for a closer look

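Within groups of 5, a value was singled out when its gap to the nearest other value exceeded 0.71 of the range of the group (Dixon's limit). This was checked for 17 genes in both groups, 34 in all, of which chance alone singles out about 1 in 20. In young replicate 1, *Mbp* stood at 511 normalized counts (gap 0.771 of the range) and *Gpr37l1*, a receptor of satellite glia and non-myelinating Schwann cells, at 95.1 (0.809), both above the other 4 young aortae. Both values come from the library that also held the most of the fat cell genes, and they are not independent of one another. In young replicate 4, *Prx* stood at 360.2 (0.725), below the other 4 young aortae, and without that aorta the log2 fold change of *Prx* was 0.31 and no longer passed the test (adjusted p = 0.0580 in edgeR).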

How the results depend on the processing

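*Pmp22* kept its direction and its call in all 21 alternative fits, and *S100b* and *Xkr4* kept their direction and stayed uncalled in all of them. Of the 8 genes, 5 were called by limma-voom with quality weights and by DESeq2 without young replicate 1, 3 by limma-voom without it, 1 at a threshold of 0.01, and 1 to 5 with 1 library left out. The log2 fold changes that passed the test were 0.80 (*Mbp*), 0.72 (*Sox10*) and 0.84 (*Cdh19*) with quality weights, 0.85, 0.76 and 0.84 for DESeq2 without young replicate 1, and 0.85 for *Mbp* in limma-voom without it. With each library left out in turn, log2 fold changes ran from 0.31 to 0.85 for *Mbp*, 0.41 to 0.77 for *Sox10*, 0.32 to 0.84 for *Cdh19*, 0.31 to 0.44 for *Prx* and -0.057 to 0.65 for *Ngfr*. The *Ngfr* value turned to -0.04 without young replicate 2 and to -0.057 without young replicate 5, and the cause was not tested. Member pairs with an adjusted p below 0.05 numbered 0 to 4, with 0 without young replicate 4. Over all genes the count was 1132 to 2367 with 1 library left out, lowest without young replicate 4 and highest without young replicate 1. It was 2643 of 14614 with quality weights and 658 of 14614 at 0.01. Without young replicate 1 it was 2937 of 27637 genes with a count for DESeq2, and 2360 of 14744 tested genes for limma-voom. In the 3 other Schwann cell and myelin lists it was 9 for DESeq2 without young replicate 1, and 4 to 7 with 1 library left out. In the neuron and other cell type lists it was 22 for DESeq2, 25 with quality weights, 25 and 21 for DESeq2 and limma-voom without young replicate 1, 7 at 0.01, and 10 to 16 with 1 library left out. The replicate numbers did not pair the mice (correlations of deviations between same-numbered mice from -0.29 to 0.13). The fit with the number as a replicate block called 1261 genes and 2 of the 8 members, *Prx* and *Pmp22*. Whole-aorta RNA cannot place any change in a cell type.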

Other observations

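Of the genes whose variation between mice was most like that of *Sox10*, *Cdh19* and *Xkr4* (mean Pearson r over 10 mice with group means removed, 14606 genes compared), the first 5 were *Nudt11* at 0.72, *Jag1*, *Reln*, *Zfp664* and *Col11a1*, the last at 0.70. *Xkr4* shared little variation with the other members, so the comparison was repeated with *Mbp* in its place, a choice made after the data were seen. The first 5 were then *Kcna2*, a potassium channel of axons, at 0.90, *Atl1*, *Dtx1*, *Map3k12* and *Kdm6b*, the last at 0.86. With *Prx* and *S100b* as the reference, also chosen after the data were seen, the first was the unnamed transcript *4930550C14Rik* at 0.95. All of these points share the same 10 libraries, and the likeness is a description only. Young replicate 1 is among them, and no ranking without it is given here. Without that library r was 0.44 for *Sox10* with *Cdh19* and 0.40 for *Mbp* with *Cdh19*, so that the places can rest largely on it.

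Several genes of nerve signalling that were not tested, or did not pass, were set apart after their values were seen. *Nrg1*, the neuregulin ligand of the ERBB3 receptor, was below the filter on low counts, with 4.99 to 15.1 normalized counts in young and 0 to 2.89 in old aortae. In the 3 alternative fits that tested it (edgeR without the filter, and DESeq2 with and without young replicate 1) it was called lower, with adjusted p from 0.00708 to 0.0211. *Egr2*, the transcription factor that starts myelination in Schwann cells and is also an immediate early gene in other cells, had 100.3 ± 39.2 and 166 ± 30.8 normalized counts (log2 fold change 0.73, SE 0.25, adjusted p = 0.0777 in edgeR), and an adjusted p of 0.0251 without young replicate 1. *Dhh*, the hedgehog ligand of Schwann cells that endothelial cells also make, had 264 ± 35.0 and 183 ± 54.8 (log2 fold change -0.53, SE 0.20, adjusted p = 0.109). Other genes, among them *Rhebl1* on the same strand, overlap 25.2% of the exonic sequence of *Dhh*, so that this share of its reads is uncertain.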
